A study of Drosophila melanogaster with 9 samples.

Results

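The effect of the enok1 allele on ovarian piRNAs was examined in germline clones. The comparison used 6 of the 9 small RNA libraries of the series, 3 with enok1 clones and 3 with wild-type (WT) clones. All 6 were chosen by their labels. In the 4 deposited tables, the 3 enok1 columns were set against the 3 WT columns over 140 piRNA clusters and over the 3′ untranslated regions (UTRs) of genes, strand by strand. Enok is the fly KAT6 enzyme, a histone acetyltransferase that modifies lysine residues of histone H3. The enok1 allele is a nonsense mutation that truncates the protein within its catalytic domain.

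Every female carried a single copy of hs-Flp, a heat-shock FLP transgene, and the dominant female-sterile insertion ovo[D1-18]. The WT females had FRTG13 on both homologs, with ovo[D1-18] on 1 of them. The enok1 females had the mutation, enok[1], on the FRTG13 homolog that lacks ovo[D1-18]. FLP recombinase was induced by heat shock of larvae, and ovaries came from adults of 3 to 5 days. Germline cells that keep ovo[D1-18] do not develop past early oogenesis, so the later egg chambers hold homozygous clones. The somatic follicle cells around each clone are not selected in this way, and total RNA of whole egg chambers contains both cell types. In such bulk RNA, fewer cells of a type and less small RNA per cell cannot be told apart. The labels number the replicates and do not say whether they are separate dissections, so the p-values measure the spread between these libraries.

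PIWI-interacting RNAs (piRNAs) are small RNAs bound by PIWI proteins that silence transposons in the germline. Most derive from piRNA clusters, which are regions rich in transposon fragments that are transcribed into long precursors. Dual-strand clusters such as 42AB give piRNAs from both genomic strands through the germline protein Rhino, whereas uni-strand clusters such as flamenco (flam), which acts in follicle cells, resemble ordinary genes with a promoter. Small RNAs of the sense strand also come from the 3′ UTRs of some mRNAs.

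Values are abundances, which are small RNA reads divided by the microRNA (miRNA) reads of the same library, so that a library with many miRNA reads has low abundances throughout. The summed abundance of the clusters over both strands lay between 548223 and 577943 in the WT libraries. In enok1 it was 301140 in replicate 1, 418758 in replicate 2 and 396323 in replicate 3. Replicate 1 of enok1 thus stood apart at 73.9% of the mean of the other enok1 libraries. The cluster totals and the counts of cluster calls are given with and without replicate 1. Most values of single clusters and of 3′ UTRs are given only with replicate 1 included. In the reads themselves, the value of 1 read, taken from the smallest step of low values, was 0.271 in that library, against 0.379 and 0.405 in the other enok1 libraries and 0.399 to 0.418 in WT. Divided by this value, its clusters held about 1109989 read equivalents, against 1105195 and 978576 in the other enok1 libraries and 1370558 to 1447941 in WT. Shares of the cluster total and ratios of the strands within a library do not depend on the miRNAs.

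The pool of cluster piRNAs was less dominated by a few clusters in enok1 than in WT. The 10 clusters with the most piRNAs in WT held 54.1% ± 0.67 of all cluster piRNAs there (SD, n = 3) and 35.8% ± 0.79 in enok1. In WT 8, 8 and 9 clusters sufficed to make up 50% of the total, and in each enok1 library 14 clusters were needed. The effective number of clusters, the inverse of the summed squared shares, rose from 16.7 ± 0.57 to 35.96 ± 0.92. None of these values overlapped between the groups, and the exact permutation p (2-sided) was 0.1 for each, the smallest that 3 libraries against 3 can give. They were hardly touched by the low library, since the effective number was 35.1 in replicate 1, 36.9 in replicate 2 and 35.9 in replicate 3.

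Most of the 10 leading WT clusters kept nearly their rank, with a median change of 2 places against 7 over the other clusters, and 2 of them moved by 10 places or more. A kept rank does not mean a kept abundance, since 42AB, at 16.3% of its WT abundance, moved by only 2 places. The cluster 42AB had rank 1 in all WT libraries and rank 3 in all enok1 libraries. Its share of cluster piRNAs was 21.0%, 20.03% and 20.3% in WT and 5.05%, 5.25% and 4.92% in enok1, so the low library differed little from the others here. Above it in enok1 stood cluster2, which rose from rank 3 to rank 1, and flam, which moved from 4 to 2. Both are uni-strand in these data, with 97.5% and 91.0% of their WT piRNAs on the sense strand. The share of cluster2 was 5.15% ± 0.034 in WT and 8.54% ± 0.29 in enok1, and that of flam 4.96% ± 0.39 and 7.36% ± 0.71. Their larger shares go with the smaller total, since neither was called as abundance with all libraries. Sense cluster2 was at 27726, 28969 and 28842 in WT and at 25819, 34898 and 31902 in enok1, and the groups overlapped. Without replicate 1 it was called higher, by 0.23 on the log2 scale (limma adjusted p = 0.043).

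Of the 10 leading WT clusters, 6 were still among the leading 10 in enok1. The 4 that left were cluster11, cluster5, cluster4 and cluster9. Their ranks went from 2 to 25, from 5 to 14, from 7 to 69 and from 10 to 12. The newcomers were cluster6 (rank 13 to 5), cluster12 (11 to 6), cluster26 (14 to 8) and cluster31 (20 to 9). Within a group a cluster's rank varied by a median of 2 places in WT and 3 in enok1, with a maximum of 9 and 17. By comparison, 51 clusters moved by 10 places or more between the groups, of which 23 moved down and 28 up. The steepest falls were those of cluster97 (22 to 94), cluster4, cluster29 (76 to 130) and cluster33 (90 to 133), and the steepest climbs those of cluster73 (63 to 26) and cluster112 (87 to 51).

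**Figure D1:**
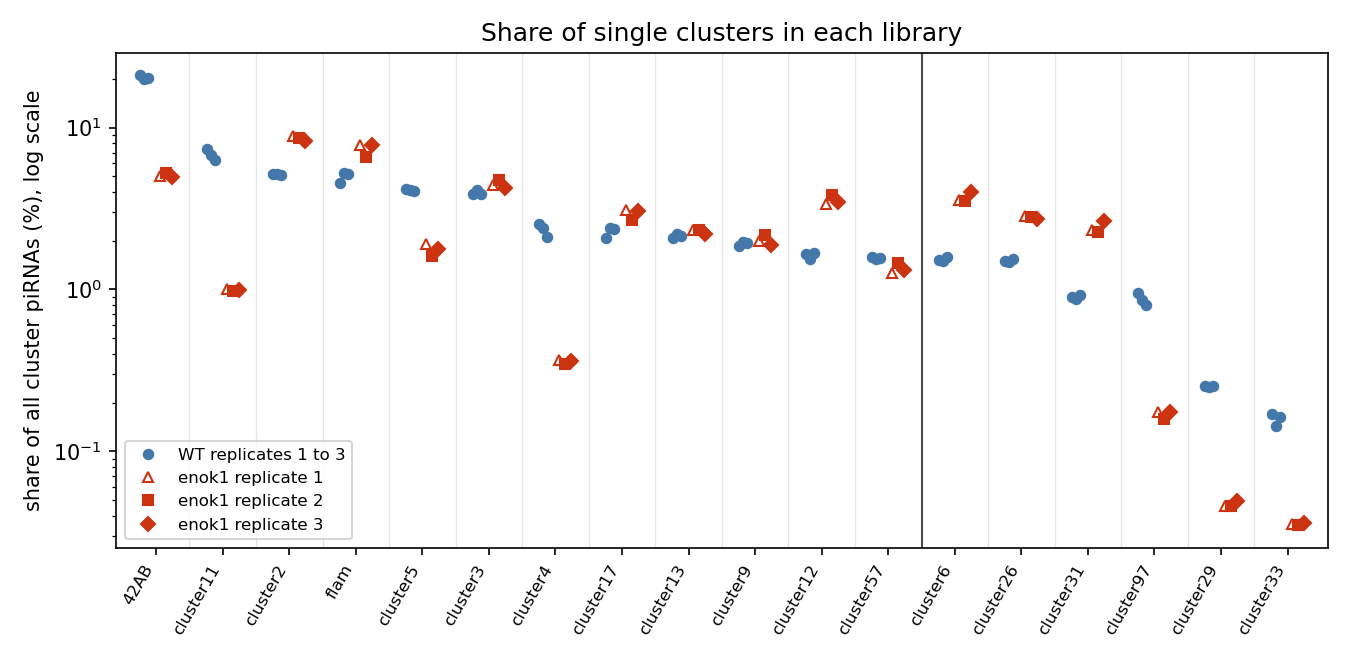
Share of all cluster piRNAs (%, log scale) of single clusters in each library, with the 12 leading WT clusters in order of WT rank at the left of the vertical line and 6 others at the right. Circles are the 3 WT libraries and red symbols the 3 enok1 libraries, the open triangle being the low replicate 1. The share of cluster4 was near 2.35% in WT and 0.358% in enok1, while replicate 1 sat beside the other enok1 libraries in every cluster shown.

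The losses were concentrated in few clusters. The net fall of the cluster total was 195891 abundance units, and 42AB with 97171 and cluster11 with 34803 accounted for most of it. Next came cluster5 with 16945 units (8.65% of the net fall), cluster4 with 11971 (6.11%), cluster3 with 5876 (3.00%) and cluster97 with 4321 (2.21%). On the other side, cluster6 gained 5073 units, cluster12 gained 4019 and cluster31 gained 3880. As a share of the total, 102 of the 140 clusters were larger in enok1 than in WT, and 93 of these (66.4% of the clusters) lay above all WT libraries in all 3 enok1 libraries. With 42AB alone giving up so much of the total, larger shares elsewhere follow in part from arithmetic.

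Single clusters were then tested on each strand by limma on log2(abundance + 1), with p-values adjusted over all 140 clusters of the strand. Falls were called in 62 sense clusters (44.3%) and 66 antisense clusters (47.1%), and rises in 25 (17.9%) and 19 (13.6%). Put together by cluster, 48 fell on both strands, 13 rose on both and 31 were called on neither. A further 14 fell on the sense strand alone and 16 on the antisense strand alone. In this fit limma gave all clusters of a strand the same standard error, 0.18 on the sense strand, which makes the p-values of large changes very small. The test on each cluster's own variance called 35 falls and 9 rises among sense clusters, and 45 falls and 4 rises among antisense clusters.

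A core of 17 clusters was lower on both strands by every one of 4 fits, with abundances or shares of the cluster total and with the pooled or the cluster's own variance. These were 42AB, cluster4, cluster5, cluster11, cluster24, cluster29, cluster33, cluster36, cluster42, cluster78, cluster85, cluster97, cluster104, cluster105, cluster115, cluster117 and cluster132. No cluster was higher on both strands by all 4 fits. Shares do not carry the low level of replicate 1, and on that scale 25 sense (17.9%) and 34 antisense clusters (24.3%) fell. The same scale turned the balance of calls, with rises in 83 sense (59.3%) and 84 antisense clusters (60%).

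Next to 42AB, the largest clusters of this core were cluster11, cluster5 and cluster4. Antisense piRNAs of cluster11, its major strand, were at 37527, 36275 and 33576 in WT and at 2636, 3686 and 3552 in enok1 (log2 fold change −3.46 ± 0.18, SE). Its sense piRNAs were at 2637, 2776 and 2637 in WT and at 372, 389 and 385 in enok1. The minor strand thus showed almost no difference between replicate 1 and the other enok1 libraries, although the major strand was lowest there.

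Sense piRNAs of cluster4, which made up 95.4% of its WT piRNAs, fell from 13368, 13145 and 11544 to 956, 1329 and 1298 (log2 fold change −3.42). Its antisense piRNAs fell from 604, 645 and 599 to 141, 128 and 142 (−2.16). The share of cluster4 in the cluster total was 2.55%, 2.39% and 2.10% in WT and 0.364%, 0.348% and 0.363% in enok1. In the 2-stranded 42AB, sense piRNAs had a log2 fold change of −2.62 and antisense piRNAs one of −2.65, so that the estimate was the larger one in cluster4 on the sense strand and in 42AB on the antisense strand. This difference between clusters was not tested.

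In cluster5, sense piRNAs were at 15990, 16570 and 16339 in WT and at 4164, 5003 and 5187 in enok1 (−1.77). Its antisense piRNAs were at 6966, 7354 and 7034 in WT and at 1548, 1696 and 1819 in enok1 (−2.08). A different pattern was seen in cluster97, where the antisense strand dominates as in cluster11. Antisense piRNAs of cluster97 fell from 4875, 4610 and 4270 to 450, 583 and 613 (−3.07), and its sense piRNAs from 352, 390 and 353 to 80.1, 75.6 and 84.3 (−2.18). In all of these clusters every enok1 library lay far below every WT library on both strands.

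Some small clusters had falls of a like size. In cluster29 sense piRNAs were at 754, 760 and 770 in WT and at 42.4, 57.2 and 45.9 in enok1, the steepest fall on that strand (log2 fold change −3.95). Its antisense piRNAs were at 631, 687 and 688 in WT and at 96.1, 135 and 148 in enok1 (−2.42). Sense piRNAs of cluster33 fell from 542, 509 and 548 to 35.3, 56.5 and 51.1 (−3.48). The steepest antisense fall was in cluster42, from 273, 233 and 270 to 14.0, 20.4 and 22.0 (−3.73), with a sense fall of −2.70. The sense piRNAs of cluster78 fell by 2.67 on the log2 scale and its antisense piRNAs by 2.16.

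Rises were smaller than falls. In cluster73 antisense piRNAs were at 758, 812 and 870 in WT and at 1385, 2076 and 2272 in enok1 (log2 fold change 1.20, limma adjusted p = 4.5e-10). Its sense piRNAs rose by 0.75. Antisense piRNAs of cluster112 went from 314, 317 and 364 to 567, 763 and 877 (1.13), and sense piRNAs of cluster71 from 43.5, 57.8 and 56.1 to 90.3, 129 and 126 (1.11). These groups did not overlap on the strand given, although replicate 1 was the lowest enok1 library each time.

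Larger clusters that rose on both strands were cluster6 (sense 0.59, antisense 0.73), cluster12 (0.46 and 0.54), cluster31 (0.92 and 0.69) and cluster34 (0.95 and 0.83). The smaller cluster64 (0.75 and 0.59) and cluster68 (0.67 and 0.82) rose on both strands as well. The antisense call of cluster64 was lost without WT replicate 1 (limma adjusted p = 0.068) and the sense call of cluster6 without enok1 replicate 3 (0.051). With each cluster's own variance, none of the 13 clusters that rose on both strands was called on both. In cluster12, for instance, sense piRNAs were at 5050, 4713 and 5316 in WT and at 5201, 8751 and 7208 in enok1, so that replicate 1 overlapped WT, and the sense call was lost when WT replicate 1, 2 or 3 or enok1 replicate 2 or 3 was left out (limma adjusted p between 0.055 and 0.12), and the antisense call without WT replicate 1. The share of cluster12, in which that library is not set apart, was 1.66%, 1.55% and 1.69% in WT and 3.36%, 3.83% and 3.44% in enok1.

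Several of the leading clusters sat between these classes. In cluster13, cluster9 and cluster17 abundances were lower in enok1 by between 0.18 and 0.60 on the log2 scale, and all but antisense cluster17 were called. Their shares of the total were slightly higher, with log2 differences between 0.023 and 0.44 on the share scale. Whether such clusters count as lower thus depends on the scale. As abundance, cluster57 fell by 0.86 for sense and by 0.75 for antisense piRNAs. As share its log2 differences were −0.24 and −0.12, and the antisense one was not called (limma adjusted p = 0.064). The antisense calls of cluster13 and cluster9 were lost without WT replicate 2 or 3.

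Whether both strands of a cluster changed alike was tested next, with the log2 ratio of sense to antisense piRNAs. This ratio is formed within a library and is not moved by the miRNAs or by the level of a library. In 88 of the 140 clusters (62.9%) the ratio differed between enok1 and WT (limma, adjusted p under 0.05). It shifted toward antisense in 42 (30% of the clusters) and toward sense in 46 (32.9%). The shift exceeded 0.5 log2 units in 39 of the 88 and 1 log2 unit in 9. Without replicate 1 of enok1, 84 of the 88 were called again, and 72 were called on their own variance. In 64 of the 88 the strand that dominated in WT lost ground against the other strand, and in 24 it gained.

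The cluster 42AB was not among the 88. Sense piRNAs made up 53.7%, 52.8% and 54.2% of its piRNAs in WT and 52.5%, 55.1% and 54.6% in enok1 (log2 ratio change 0.03 ± 0.060, SE, limma adjusted p = 0.66). Neither was flam (−0.07, adjusted p = 0.39) nor cluster2 (−0.09, adjusted p = 0.32). A p above the threshold does not show that the strands changed alike, but the shifts described below were many times larger than these estimates.

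Some clusters lost far more from the sense strand. In cluster29 the sense part went from 54.4%, 52.5% and 52.8% to 30.6%, 29.8% and 23.6% (log2 ratio change −1.54, limma adjusted p = 9.1e-05). In cluster33 it went from 58.5%, 61.3% and 58.2% to 32.97%, 38.6% and 35.5% (−1.38). The low-abundance cluster111 had the largest shift of this kind, from 50.7%, 50.5% and 53.2% to 26.5%, 25.5% and 22.6% (−1.62), because its sense piRNAs were lower in every enok1 library while its antisense piRNAs overlapped between the groups. In each of these clusters the major strand was sense in every WT library and antisense in every enok1 library.

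The same switch was seen in cluster3, the sixth cluster of WT. Its sense piRNAs fell from 12105, 13052 and 12588 to 5356, 8130 and 7309, whereas its antisense piRNAs were at 9106, 10839 and 9934 in WT and at 7860, 11791 and 9548 in enok1. The antisense groups overlapped and the sense groups did not. The log2 ratio changed by −0.83 (limma adjusted p = 8.2e-05). Its summed abundance and its rank, which was 6 in WT and 4 in enok1, would not have shown this difference.

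Among the biased clusters, cluster85 lost the minor and cluster4 the major strand more. Sense piRNAs of cluster85 made up 25.0%, 24.5% and 24.1% in WT and 13.2%, 13.9% and 13.6% in enok1 (−1.04). In cluster4 the sense part went from 95.7%, 95.3% and 95.1% to 87.2%, 91.2% and 90.1% (−1.26). In total 8 clusters had sense as the major strand in all WT libraries and antisense in all enok1 libraries, namely cluster3, cluster29, cluster30, cluster33, cluster44, cluster65, cluster73 and cluster111.

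The opposite switch, from antisense to sense, occurred in 9 clusters, which were cluster22, cluster35, cluster40, cluster89, cluster91, cluster98, cluster100, cluster106 and cluster137. In cluster98 sense piRNAs were at 543, 621 and 621 in WT and rose to 971, 1307 and 738 in enok1 (log2 fold change 0.72), while antisense piRNAs fell from 963, 1014 and 1069 to 503, 667 and 660 (−0.74). The strands of cluster98 thus changed in opposite directions, and the log2 ratio changed by 1.46 (limma adjusted p = 0.00081). The same held for cluster89, with sense piRNAs at 584, 652 and 650 in WT and 855, 1070 and 936 in enok1, and antisense piRNAs at 998, 1070 and 1094 in WT and 617, 857 and 849 in enok1. Its log2 ratio changed by 1.05 (limma adjusted p = 8.2e-05). The antisense call of cluster89 was lost when any WT library was left out (adjusted p between 0.054 and 0.11). Summed over strands, both clusters held nearly as many piRNAs as in WT, with net gains of 5 and 45 abundance units.

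Other clusters also shifted toward sense. In cluster11 and cluster97, which are dominated by antisense piRNAs, that strand lost more without a switch. The sense part rose from between 6.6% and 7.3% to between 9.5% and 12.4% in cluster11 (log2 ratio change 0.65), and from between 6.7% and 7.8% to between 11.5% and 15.1% in cluster97 (0.89). In cluster42 it rose from 36.9%, 40.1% and 38.1% to 60.5%, 48.9% and 59.7% (1.04), with a switch of the major strand in replicates 1 and 3. A shift of 0.96 in cluster110 arose from its sense piRNAs, which rose from between 198 and 223 to between 339 and 482, whereas its antisense piRNAs lay between 4.61 and 5.95 in all libraries. The authors left cluster110 out of their own test, because they found no WT piRNAs that map uniquely to it. The values here conflict with that statement, and the reason was not tested. The shift of 1.26 in cluster114 rested on very low values, with at most 28.6 sense and 3.14 antisense abundance units in any library. Over all clusters together, the sense part was 55.2% ± 0.32 in WT and 58.4% ± 0.22 in enok1 (exact permutation p = 0.1).

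**Figure D2:**
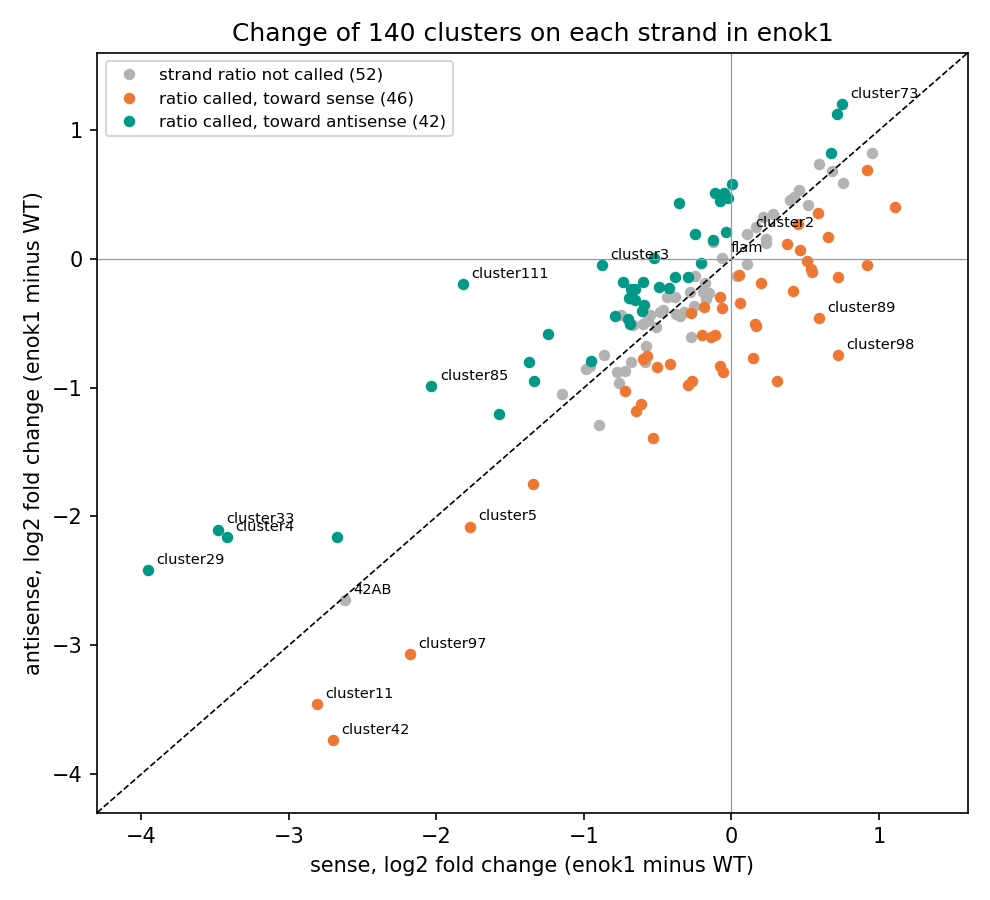
Log2 fold change from WT to enok1 of 140 clusters for sense (x axis) and antisense piRNAs (y axis). Each point is a cluster, coloured by whether its strand ratio was called, and the dashed line marks equal change. The point of 42AB lies near the line at −2.62 and −2.65, while cluster29 lies above it and cluster11 below.

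**Figure D3:**
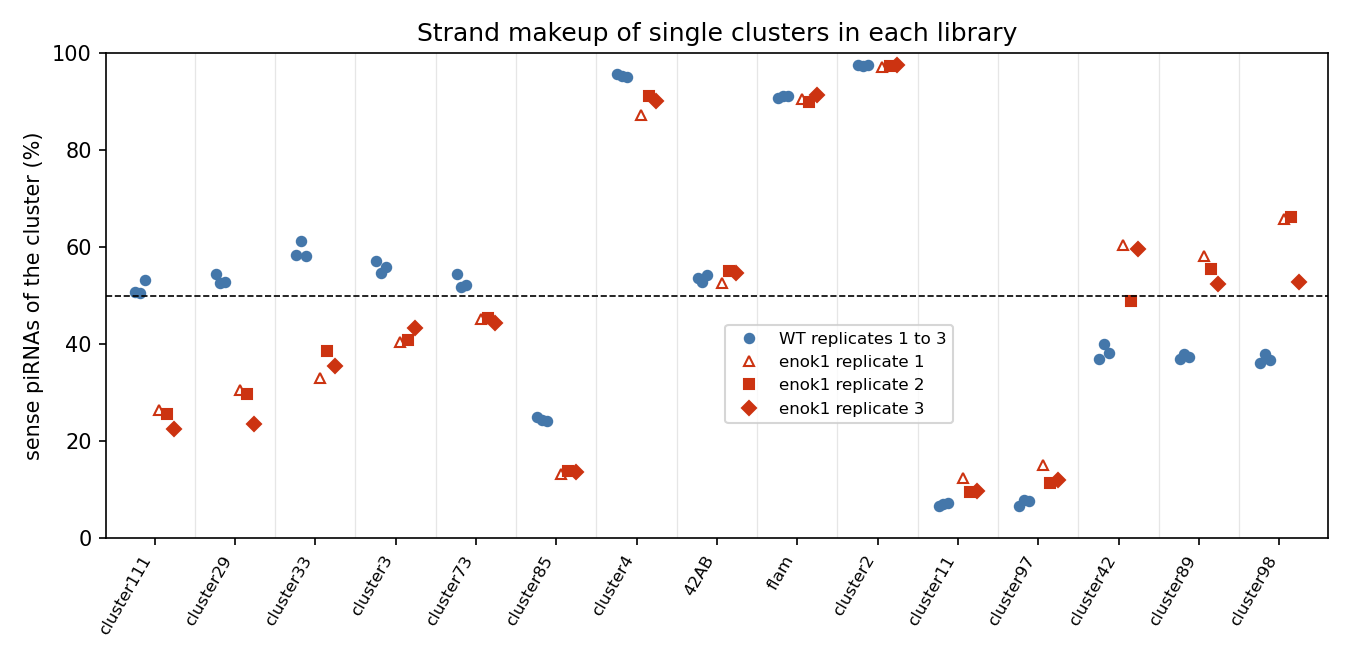
Sense piRNAs as a percentage of both strands in 15 named clusters, for each library. Circles are WT, red symbols are enok1, and the dashed line marks equal strands. In cluster3, cluster29, cluster33, cluster73 and cluster111 all WT libraries lie above the line and all enok1 libraries below it, and in cluster89 and cluster98 the order is the opposite.

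Falls were found at every degree of strand bias in WT, but their share differed between the classes. Of the 7 clusters with 90% or more of their WT piRNAs on 1 strand, 3 fell and 1 rose among sense piRNAs, and 4 fell among antisense piRNAs. This class holds flam and cluster2 next to cluster4 and cluster11. Of the 22 clusters with 75% to 90% on 1 strand, 54.5% fell and 0% rose among sense piRNAs. Among antisense piRNAs, 77.3% of these 22 fell and 4.55% rose, against 47.1% and 13.6% of all clusters. Of the 49 clusters with 60% to 75% on 1 strand, 38.8% fell and 26.5% rose among sense piRNAs. The antisense values of these 49 were 34.7% and 18.4%. Of the 62 clusters with under 60% on either strand, 28 fell and 11 rose on the sense strand, or 45.2% and 17.7%, close to the 44.3% and 17.9% of all clusters. The strand ratio was called in 5 of the 7 most biased clusters and in 35 of these 62 (56.5%), against 62.9% of all clusters. By WT rank, falls were called in 80% of the first 10 clusters on the sense strand and in 60% on the antisense strand. Over all clusters these shares were 44.3% and 47.1%, and no rise was called in the first 10. The strand ratio was called in 5 of the first 10 clusters and in 52 of the last 70, and the median size of its change was 0.20 log2 units in the former and 0.39 in the latter. Low clusters hold fewer reads, and the part of depth in this difference was not tested.

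The low library shifted nearly all clusters by a common amount. Relative to the mean of the other enok1 libraries, replicate 1 was lower by a median of 0.43 log2 units for sense clusters and likewise for antisense clusters. It was the lowest of the 3 enok1 libraries in 132 sense and 131 antisense clusters. As a share of the cluster total the median difference was 0.01 on both strands, and replicate 1 was the lowest in 50 sense and 43 antisense clusters. The median SD of a sense cluster over the enok1 libraries was 0.27 log2 units as abundance and 0.09 as share, against 0.08 and 0.05 in WT.

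The 3′ UTRs did not share this shift to the same extent. Their sense small RNAs in replicate 1 were lower than in the other enok1 libraries by a median of 0.17 log2 units, the same as in WT replicate 1 against the other WT libraries. Relative to the cluster total they were thus higher in replicate 1, by a median of 0.24 log2 units. The value of 1 read in replicate 1 was 66.9% of the WT mean, which corresponds to 1.49 times as many miRNA reads. The part that the miRNA reads had in its low cluster values was not tested.

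Leaving out replicate 1 raised the totals and added rises. The cluster total over both strands was 65.5% of WT with all libraries and 71.8% without replicate 1, or 75.9% for sense and 66.6% for antisense piRNAs. The calls then were 66 sense clusters lower and 35 higher, and 65 antisense clusters lower and 29 higher. All 62 falls and 25 rises of the sense strand were kept, as were 64 of the 66 falls and all 19 rises of the antisense strand. The share of 42AB in enok1 was 5.08% with and 5.09% without the low library, and the strand ratio calls were 42 and 46 with it and 40 and 49 without it.

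**Figure D4:**
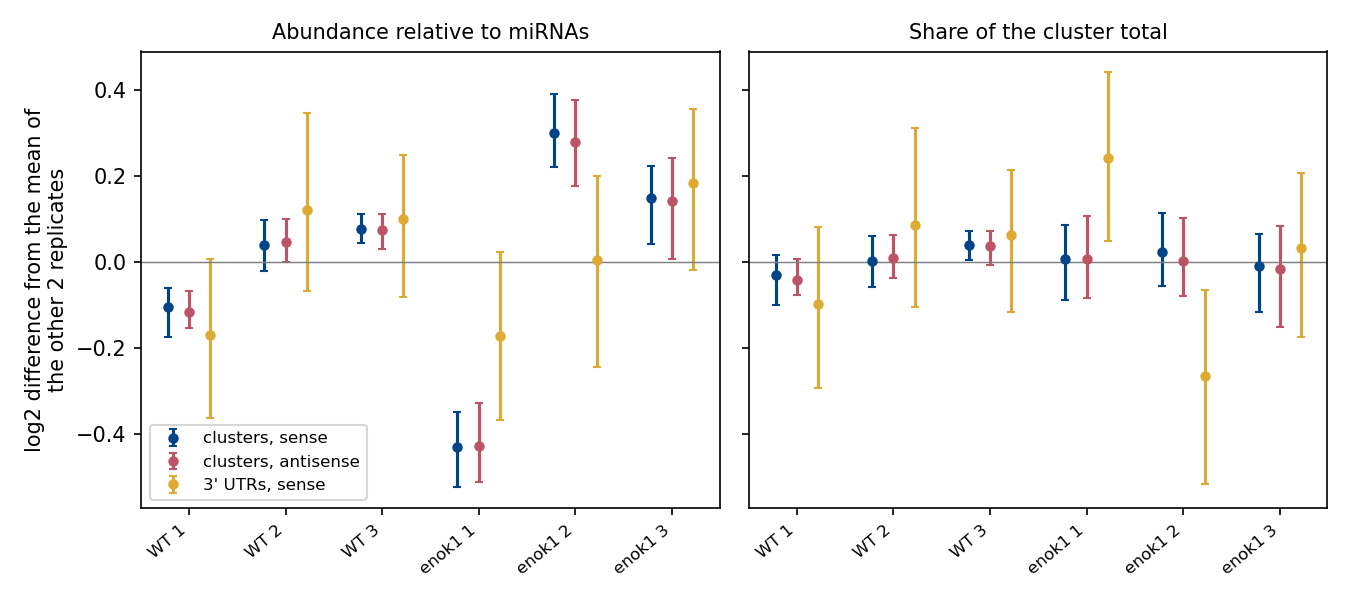
Median log2 difference of each library from the mean of the other libraries of its group, as abundance (left) and as share of the cluster total (right), for clusters of each strand and for sense 3′ UTRs. Bars span the first to the third quartile over features. Replicate 1 of enok1 is near −0.43 for clusters as abundance and near 0 as share, while its 3′ UTRs are at −0.17 as abundance and 0.24 as share.

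Genic small RNAs were then compared. The 8510 features, all called 3′ UTRs here, include 82 features of non-coding RNAs, which enter the sums and, where abundant enough, the tests. An example is 7SLRNA:CR32864, with sense abundances of 744 ± 124 in WT and 737 ± 127 in enok1. The summed sense abundance of all 3′ UTRs was 28501, 29542 and 27511 in WT and 26392, 30474 and 31774 in enok1, with overlap between the groups (exact permutation p = 0.6). Without enok1 replicate 1, the enok1 mean was 109% of WT, and the other enok1 libraries lay above every WT library. The sums take in all 8510 features, of which 4601 remain when those with the same start, strand and values are counted once. With repeated features counted once, the difference of the sense sum was −168.2 (exact permutation p = 0.9), against 1028 with all features. Antisense small RNAs of 3′ UTRs summed to 1802 ± 83.2 in WT and 1598 ± 202 in enok1 (exact permutation p = 0.2). Since cluster piRNAs were lower, the sense 3′ UTR sum amounted to 5.02% ± 0.23 of the cluster total in WT and to 8.02% ± 0.74 in enok1 (exact permutation p = 0.1). These percentages rest on the sum over all features, with repeated ones included.

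Single genes changed in both directions. Features were tested where their abundance averaged 10 or more in the 9 libraries of the series. Of 298 such sense features, 20 (6.71%), from 19 genes, were lower and 55 (18.5%), from 45 genes, were higher in enok1 (limma, adjusted p under 0.05). With each feature's own variance the numbers were 6 and 32. After scaling to the cluster total, which raises all enok1 values, 9 were lower and 194 higher. The minimum itself bears on these counts, since 6 of the 9 libraries are mutant. Of the 55 features called higher, 17 averaged under 10 in WT and passed only through mutant libraries, and of the 20 called lower, 5 averaged under 10 in enok1. With no minimum, 30 were lower and 111 higher of 4547. Positions below are starts in the dm3 build as the identifiers give them, and the end of a UTR is not in the identifier.

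Eggshell genes made up much of the falls. These genes encode chorion and vitelline membrane proteins, which follicle cells secrete in the later stages of oogenesis. In a list of follicle cell and eggshell markers, 13 features of 10 genes were tested. Of these, 8 were lower and none was higher, against 6.71% lower and 18.5% higher of all 298 sense features. The 8 include both features of Vm26Aa, which had nearly the same values in every library. They also include Vm26Ab and Vm34Ca, which averaged under the minimum in enok1, at 5.74 and 8.10. The median log2 fold change of the list was −1.002, against 0.11 over all 298 features. The chorion gene Cp18 (chromosome 3L, start 8720628) was at 491, 353 and 367 in WT and at 133, 16.3 and 91.8 in enok1 (log2 fold change −2.74, limma adjusted p = 0.0039). Its neighbour Cp19 (3L, start 8723619) was at 245, 109 and 196 in WT and at 111, 26.1 and 35.99 in enok1 (−1.85). The groups were apart in Cp18 and overlapped in Cp19, where replicate 1 was the highest enok1 library.

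The most abundant of them, Cp15 (3L, start 8722046), was at 5542, 4590 and 2682 in WT and at 967, 2251 and 3007 in enok1 (−1.13, limma adjusted p = 0.048). The WT and enok1 values of Cp15 overlapped, and its call was lost in 4 of the 6 fits that left out 1 library, replicate 1 of enok1 among them. The vitelline membrane genes Vm26Aa (−1.79), Vm26Ab (−1.48) and Vm34Ca (−1.002) and the chorion gene Cp36 (−0.91) were also called lower, although the call of Vm34Ca was lost without replicate 2 of either group and that of Cp36 without WT replicate 3. In enok1, Vm26Ab and Vm34Ca averaged under the minimum of 10, so their falls are given as a description. Not called were both features of Cp38 (−0.94 and −0.82), the yolk protein gene Yp1 (−0.93, adjusted p = 0.17) and the follicle cell transcription factor gene traffic jam (tj), with 55.5 ± 6.7 in WT and 62.9 ± 13 in enok1.

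Summed over the whole list, these markers ranged from 4054 to 6967 in WT and from 1742 to 3536 in enok1. On each feature's own variance, Vm26Ab was the only one of the 8 called, and it averaged under the minimum in enok1. After scaling to the cluster total, Cp15, Cp19, Cp36 and Vm34Ca were not called (limma adjusted p between 0.11 and 0.37). On that scale Cp18, Vm26Ab and both features of Vm26Aa were still called lower. Each library pools egg chambers of many stages, and a part of the stage makeup in these values was not tested. The lowest enok1 library differed between genes. It was replicate 1 for Cp15, which makes up most of the sum, and replicate 2 for Cp18, Cp19, Vm26Aa, Vm26Ab, Vm34Ca and Cp36. With Cp15 left out, which was decided once its values were known, the sense 3′ UTR sum was 22960, 24952 and 24829 in WT and 25425, 28223 and 28767 in enok1 (113% of WT, exact permutation p = 0.1). This sum, too, includes repeated features.

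Other falls were found outside the eggshell. The long non-coding RNA lncRNA:CR34335 (X, start 3439895) fell from 400, 381 and 326 to 98.3, 101 and 95.8 (log2 fold change −1.89), with little spread in either group. Also lower was CG12581 (3R, start 9772), at 43.7, 42.02 and 48.9 in WT and 12.2, 10.04 and 18.1 in enok1 (−1.70). In enok1 the means of stnA and CG13083 were under the minimum, so their values are given as a description. The stoned locus gene stnA (X, start 22387141), with a role in synaptic vesicle recycling, was at 45.0, 34.3 and 49.1 in WT and at 3.93, 7.77 and 5.86 in enok1. CG13083 (2L, start 19488532) was at 18.4, 11.6 and 20.5 in WT and 8.68, 3.03 and 3.64 in enok1.

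Among the features called higher, fok (fledgling of Klp38B) was the most abundant. Its feature at 2L, start 20081606 was at 183, 158 and 194 in WT and at 658, 864 and 755 in enok1 (log2 fold change 2.08, limma adjusted p = 2.4e-05). Small RNAs of Amun (X, start 11604153) rose from 12.2, 10.4 and 13.9 to 33.8, 65.8 and 52.1 (1.93). The transcript NM_001259205 (2L, start 22735486), for which no symbol was matched, rose from 13.5, 12.3 and 15.8 to 43.6, 56.5 and 49.9 (1.78). None of these groups overlapped, and replicate 1 was the lowest enok1 library in each. A second fok feature (2L, start 20082304) rose less, from a mean of 10.3 in WT to 19.0 in enok1 (0.83).

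Further rises were those of Hmu (1.47), the ubiquitin ligase gene ari-1 and the actin-oxidizing enzyme gene Mical (1.28). At Mical, for example, the values were 25.2, 23.1 and 22.1 in WT and 55.9, 59.1 and 59.9 in enok1. In ari-1 the feature at X, start 18024425 was at 64.1, 62.0 and 62.8 in WT and at 152, 188 and 166 in enok1. The spread between replicates was small beside these differences. Other ari-1 features, at starts 18025702 and 18025759, rose less, by 0.64 and 0.65. Their calls were lost when any WT library or enok1 replicate 2 or 3 was left out. A further 4 features averaged under 10 in WT and passed the minimum only through mutant libraries, so their values are given as a description. The means in WT and enok1 were 9.64 and 29.2 for Kmn1, which encodes a kinetochore protein, 5.27 and 14.7 for glec, 6.71 and 16.9 for the oligosaccharyltransferase gene Stt3A, and 6.997 and 16.9 for the meiotic gene mei-217.

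**Figure D5:**
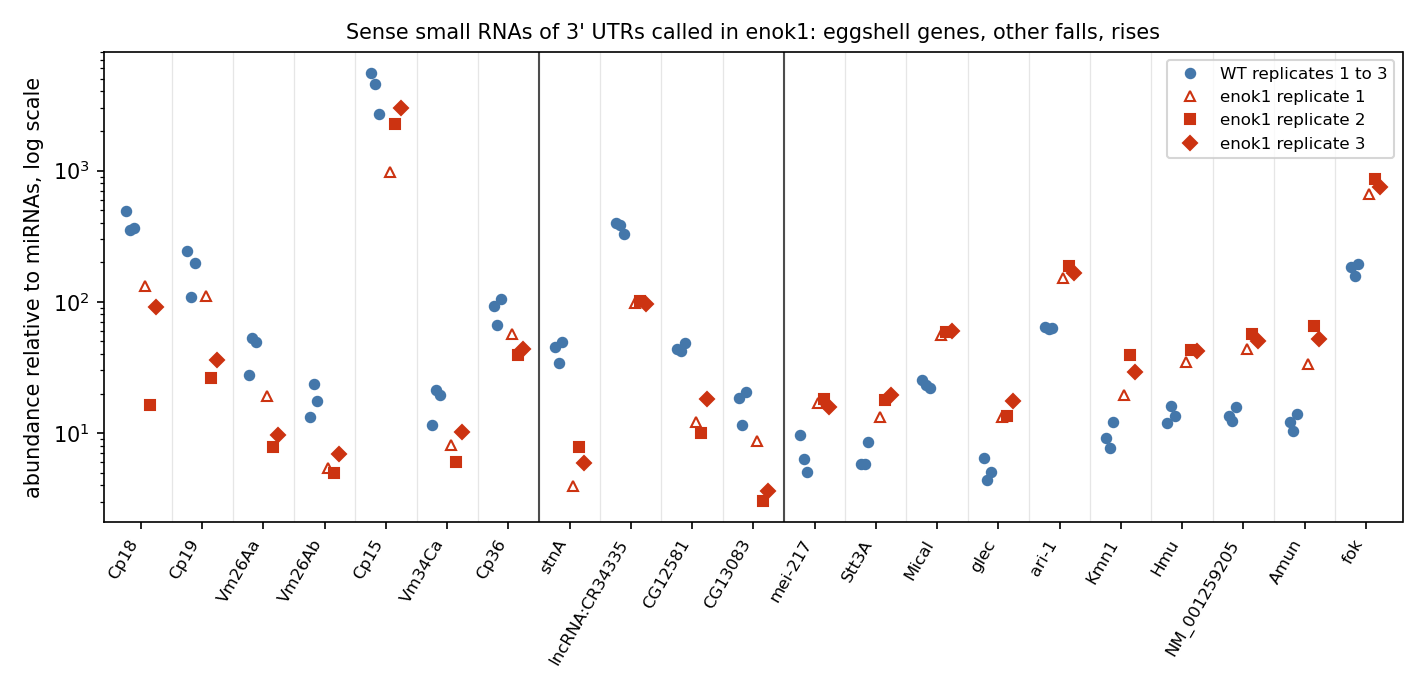
Sense abundance (log scale) of 3′ UTRs called in enok1, in each library, with eggshell genes at the left, other falls in the middle and rises at the right. Circles are WT and red symbols enok1, the open triangle being replicate 1. The values of Cp15 and Cp19 overlap between the groups, whereas those of lncRNA:CR34335 and fok are well apart.

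Few other marker or pathway genes had enough 3′ UTR small RNAs to be tested. Of the germline markers only oskar (osk), which encodes the organizer of germ plasm, passed the minimum, and with a WT mean of 8.93 it did so only through mutant libraries. Its values, given as a description, were 6.0, 10.8 and 10.03 in WT and 15.3, 15.9 and 20.2 in enok1. Of the piRNA pathway genes, the RNA helicase gene Hel25E rose by 0.71 (adjusted p = 0.046) and Nxf3, an export factor of cluster transcripts, was not called (0.47, adjusted p = 0.13). Of 6 features of ribosomal protein genes, 2 rose, against 18.5% of all sense features. Both belong to RpL3, whose other tested feature (3R, start 7048862) was not called (0.06, adjusted p = 0.85). These rises were marginal, since those of Hel25E and RpL3 were lost with any single library but enok1 replicate 1 left out, and 1 of the RpL3 features also lost its call without that library. The muscle marker Tm1 was not called, fat body markers had no feature, and no feature of a histone acetyltransferase gene passed the minimum. No 3′ UTR of enok itself was in the tables, so the allele could not be checked against the labels.

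By chromosome, the share of features that rose was between 15.7% and 22.0% on each long arm, near the 18.5% of all sense features. On 3R 12 features rose and 1 fell of 58, on X 15 rose and 5 fell of 78, and on 2R 9 rose and 3 fell of 41. On 2L 8 rose and 5 fell of 51, and on 3L 10 rose and 4 fell of 53, among them the clustered chorion genes. On chromosome 4 there was no rise, 1 fall (PMCA, whose call was lost without WT replicate 2 or 3 or enok1 replicate 1) and a median log2 fold change of −0.29 over 12 features, but 12 features of 10 genes are too few for a statement about the chromosome.

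On the antisense strand, 23 features passed the minimum, of which 7 (30.4%) were lower and 4 (17.4%) higher. Of these, 3 of the falls averaged under 10 in enok1 and 1 of the rises under 10 in WT. The falls were led by luna, a Krüppel-like factor gene (2R, start 6865461), at 27.7, 41.0 and 31.8 in WT and 9.57, 13.8 and 15.9 in enok1 (log2 fold change −1.30, limma adjusted p = 0.00021). Next came CG40191 (2RHet, start 392660), at 20.8, 22.9 and 23.1 in WT and 8.26, 10.5 and 10.5 in enok1 (−1.12), scro (3LHet, start 251715; −0.98) and asRNA:CR43636 (X, start 12864509; −0.79). None of these 4 overlapped between the groups. CG40191 and scro averaged under 10 in enok1, so their falls are given as a description. The calls of scro and asRNA:CR43636 were lost without WT replicate 2 (adjusted p = 0.053 for each).

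Of the 5 features tested on both strands, luna, CG40191 and udd (2R, start 3994441) fell on both. Antisense luna and sense udd had nearly the same values in every library (largest difference 0.57), and whether the same reads were counted at both was not tested, so that they may not be independent. Sense small RNAs of CG40191 were at 55.1, 64.0 and 57.2 in WT and 18.2, 26.3 and 24.9 in enok1, and those of udd fell by 1.27 on the log2 scale against 0.76 on the antisense strand. 

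Of the features called higher on the antisense strand, CG40006 (2L, start 22515149) passed the minimum only through mutant libraries and is given as a description, with 1.80, 2.39 and 1.25 in WT and 14.8, 20.1 and 22.7 in enok1. Its sense small RNAs averaged 1.90 in WT and 7.49 in enok1. The other rises were those of nAChRalpha4 (3L, start 23277031), from 9.48, 13.4 and 10.2 to 21.4, 22.5 and 26.1 (1.02), of the MAP kinase gene rolled (rl; 2RHet, start 247465), from 23.8, 22.5 and 28.3 to 32.2, 47.0 and 65.1 (0.87), and of CG31211 (0.53). None of these overlapped between the groups. The call of CG31211 was lost with any single library but enok1 replicate 1 left out, and that of rl without WT replicate 2 (adjusted p = 0.053).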

How the data were processed

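Small RNA libraries (inserts of 18 to 30 nt) had been made from total RNA of egg chambers past the early stages, taken from dissected ovaries. The authors state that piPipes was run in its small RNA mode on dm3, without mismatches and with unique mappers, with miRNAs as the reference for normalization; the labels also name Trimmomatic. The deposited values are a signal on a linear scale, called abundance here, with 1 column per library. They are not counts. Only about 25.0% to 27.5% of low 3′ UTR values were whole multiples of the value of 1 read (values under 3, within 0.0051 units, just over the rounding of the 2 deposited decimals), so whole reads could not be recovered, and reads may have been shared between repeated sequences. The authors report no uniquely mapped WT piRNAs for cluster110 and cluster128, which averaged 217 and 265 in WT in the values used here. Which genomic strand sense denotes for a cluster is not given in the sources used here.

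Groups followed the labels. limma 3.58.1 (R 4.3.3) was fitted to log2(abundance + 1), with only WT and enok1 in the fit, separately per strand, with Benjamini-Hochberg adjustment over the features tested and calls at an adjusted p under 0.05. This scale understates changes of low features. The prior degrees of freedom were infinite in both cluster fits. Values given once per library were tested by exact permutation (2-sided). Of 8510 3′ UTR features, 4601 remained when those with the same start, strand and values were counted once, and those with a mean of at least 10 over the 9 libraries were tested. Names came from RefSeq identifiers (98.1% of features matched). The named features were a list of 10 clusters, the 12 leading WT clusters, the 6 largest falls and 6 largest rises per strand, the 5 largest strand shifts each way, the 8 largest falls and 10 largest rises of sense 3′ UTRs, 4 of each on the antisense strand, and tested members of the marker lists. The members and lists were chosen with earlier results of these data known. The fits were also run on simulated tables with known changes. Their noise was independent between features, without a shift of a whole library like that of enok1 replicate 1. No result given here rests on them. Alternatives were other pseudocounts, scalings, filters and variance models, all 9 libraries in the fit, a replicate block and leaving out each library. The depth of a library is known only as read equivalents. No sequences are shown.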

Additional observations from a re-analysis of the deposited data

Results flagged for a closer look

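The strands of cluster89 and cluster98 were called in opposite directions, sense higher and antisense lower. The test of the difference itself, the change of the log2 ratio of sense to antisense, gave 1.054 for cluster89 and 1.464 for cluster98 (limma adjusted p = 8.2e-05 and 0.00081). On each cluster's own variance the adjusted p-values of the ratio were 0.0043 and 0.017. On the share scale antisense cluster89 was higher than in WT by 0.16 on the log2 scale, so its fall depends on the scaling while the shift between its strands does not. The sense level of cluster98 varied more than that of most clusters, with 971, 1307 and 738 in the enok1 libraries.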

How the results depend on the processing

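Most results kept their direction and their side of the threshold. For counts of calls, scaling to the cluster total gave 25 lower and 83 higher sense clusters, 34 and 84 antisense clusters, 9 and 194 sense 3′ UTRs, and 2 and 7 antisense 3′ UTRs. Scaling by the median of ratios gave 54 sense and 45 antisense clusters higher, 12 sense 3′ UTRs lower and 117 higher, and 3 antisense 3′ UTRs lower. Own variances gave 35 sense clusters lower and 9 higher, 4 antisense clusters higher, 6 and 32 sense 3′ UTRs, and 3 and 2 antisense 3′ UTRs. A minimum mean of 5 gave 31 and 123 sense and 11 and 9 antisense 3′ UTRs, a minimum of 20 gave 9 and 24 sense and 3 lower antisense 3′ UTRs, and no minimum gave 111 sense rises and 36 antisense falls and 10 rises. As alternatives added after seeing the data, the cluster total without enok1 replicate 1 gave 24 and 81 sense clusters, 33 and 80 antisense clusters, 12 and 154 sense 3′ UTRs and 2 lower antisense 3′ UTRs. The cluster total with own variances gave 25 and 79, 31 and 77, 5 and 146, and 2 and 7 in the same order.

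With 1 library left out, sense cluster calls were between 52 and 76 lower and between 15 and 35 higher, and antisense calls between 46 and 82 lower and between 8 and 29 higher; the fewest rises came without WT replicate 1 and the most without enok1 replicate 1. Strand ratio calls toward antisense were between 27 (without WT replicate 3) and 41, and toward sense between 35 and 49. Sense 3′ UTR calls were between 16 and 22 lower and between 39 and 55 higher, and antisense ones between 3 and 9 lower and between 2 and 4 higher. The difference of the sense 3′ UTR sum was between −85.2 (without enok1 replicate 3) and 2606 (without enok1 replicate 1), and −168.2 with features of the same values counted once. Without enok1 replicate 1, the remaining enok1 libraries, at 30474 and 31774, lay above every WT library.

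Same-numbered replicates did not deviate together in all pairs of any table. The correlations of the replicate pairing were between −0.32 and 0.11 for sense clusters, −0.25 and 0.21 for antisense clusters, −0.0083 and 0.11 for sense 3′ UTRs and −0.21 and 0.38 for antisense 3′ UTRs, and between 1 and 3 of the 6 libraries correlated best with their own number. The number was therefore treated as a label only. The fit with the replicate block moved the antisense 3′ UTR falls from 7 to 4 and no other count by over 1.5 times.

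Several directions turned, among them those of called falls, namely sense cluster17, both strands of cluster13 and cluster9, and antisense cluster89. With the cluster total, the log2 fold changes were 0.56 for sense flam, 0.57 for antisense cluster3, 0.023 and 0.44 for cluster17, 0.048 and 0.14 for cluster13, 0.026 and 0.12 for cluster9 (sense and antisense), and 0.48, 0.42 and 0.16 for antisense cluster110, cluster111 and cluster89. With the median of ratios they were 0.28 for sense flam and, on the antisense strand, 0.29 for cluster3, 0.16 for cluster17, 0.24 for cluster110 and 0.14 for cluster111. Scaled to sense flam they were 0.016 for antisense cluster3 and 0.012 for antisense cluster110. With 1 library left out, the values lay between −0.17 and 0.039 for sense flam and, on the antisense strand, between −0.068 and 0.11 for flam, −0.20 and 0.095 for cluster3, −0.12 and 0.026 for cluster110 and −0.33 and 0.023 for cluster111. The change of the strand ratio of 42AB lay between −0.000729 and 0.073. The cause was not tested.

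Depth limits low clusters and 3′ UTRs, where 1 read is worth between 0.271 and 0.418.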

Other observations

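Antisense small RNAs of msl-2 (2L, start 3462216), a subunit of the dosage compensation complex, were at 11.7, 8.13 and 11.3 in WT and at 0.48, 0.28 and 1.22 in enok1. The groups were far apart. With a mean of 3.84 over the 9 libraries this feature was under the minimum for the antisense test, and it was singled out after its values were seen. Its sense small RNAs averaged 7.48 in WT and 13.5 in enok1 and passed the minimum only through mutant libraries. Both strands are given as a description, with no test.

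Low antisense values next to sense falls were also seen at 3 genes named above. Antisense small RNAs averaged 13.4 in WT and 2.59 in enok1 at CG12581, 3.28 and 0.31 at lncRNA:CR34335, and 2.03 and 0.22 at stnA. None of these reached the minimum for the antisense test.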
